A study of Mus musculus with 3 samples.

Results

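The 7 genes described here encode CXC chemokines: Cxcl1, Cxcl2, Cxcl3 and Ppbp, which attract neutrophils, and Pf4, Cxcl14 and Cxcl16, which served as a contrast. They were chosen by name from the 13242 genes of the count table, and all 7 were measured. The cells were macrophages sorted from the quadriceps of mice, taken 1 week after surgery that removed a piece of the muscle (volumetric muscle loss), and read as single cells by a droplet method that counts the 3′ ends of transcripts. In the PCL group the defect was treated with polycaprolactone, a synthetic polyester, in the UBM group with urinary bladder matrix, a decellularised tissue, and in the saline group with saline alone. All 3 groups shared the injury and the time point, and the sources used here do not give the strain, sex, age or number of mice or the markers of the sort.

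Each group was 1 library, so no test was possible, no p-value is given, and every interval below covers counting error only, not differences between mice, sorts or droplet runs. The PCL library held 1753 cells and 11006118 UMIs (unique molecular identifiers, which count captured transcripts), the UBM library 2280 cells and 14586276 UMIs, and the saline library 341 cells and 1888343 UMIs. Levels are in counts per 1000000 UMIs (CPM), and a count of 0 allowed up to 0.273 CPM in PCL, 0.206 CPM in UBM and 1.59 CPM in saline. In each library 10 of 10 macrophage markers were detected, but detection needed only 1 UMI in the whole library and so does not test the label of macrophage. The summed levels of these markers were 23226 CPM in PCL, 17460 CPM in UBM and 32266 CPM in saline. Of these sums the marker Lyz2 gave 16292 CPM in PCL, 6125 CPM in UBM and 18914 CPM in saline. The authors' 9 clusters are used by their own names, whose letters the sources used here do not explain. One of them, F2, with 56 cells, held neutrophil markers at a summed 52263 CPM, against 44.0 to 338 CPM in the other clusters. The droplet libraries shared 6 cell barcodes, carried by 12 cells. Cells with over 10% mitochondrial UMIs made up 1.03% of PCL, 2.06% of UBM and 6.74% of saline cells, and the summed level of 19 handling stress genes was 8558 CPM in PCL, 8478 CPM in UBM and 12400 CPM in saline. The 8 muscle-fibre markers summed to 39.1 CPM in PCL, 47.6 CPM in UBM and 709 CPM in saline. The part of these differences in the results was not tested.

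CXC chemokines are small secreted proteins named for a pair of cysteines set apart by 1 residue. The neutrophil-attracting ones carry a short motif before the first cysteine and act on the receptor encoded by Cxcr2, which draws neutrophils out of the blood into injured or infected tissue. Macrophages make Cxcl1, Cxcl2 and Cxcl3 within a short time of a signal through Toll-like or interleukin-1 receptors, by way of the transcription factor NF-kappa-B, and their messenger RNAs are short-lived. Ppbp and Pf4 are known chiefly as platelet proteins: Ppbp is cut to a neutrophil-activating peptide, whereas Pf4, platelet factor, lacks that motif and binds heparin-like sugars. Cxcl14 also lacks the motif and is best known from epithelium and fibroblasts, and Cxcl16 is anchored in the membrane, binds the receptor encoded by Cxcr6 and takes up oxidised lipids.

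Of the 7 genes, 5 lie side by side on mouse chromosome 5 (GRCm38), all on the plus strand, in a stretch of 146.6 kb that begins with Cxcl5 (chr5:90759360-90761624). The order along it is Ppbp (chr5:90768518-90770063), Pf4 (chr5:90772435-90773383), Cxcl3 (chr5:90786103-90789600), Cxcl1 (chr5:90891241-90893115) and Cxcl2 (chr5:90903871-90905938), with Cxcl15 between Cxcl3 and Cxcl1. Cxcl14 lies on the minus strand of chromosome 13 (chr13:56288643-56296551) and Cxcl16 on the minus strand of chromosome 11 (chr11:70453983-70459984). The submitters' processing notes name a human build while the symbols in the table are of mouse genes, so positions come from a mouse annotation and not from the deposited files. Promoter sequences of 6 of the 7 genes were matched in RefSeq (GRCm38.p6). The 150 bases before the RefSeq start of the 5 neighbours are shown, because these genes adjoin and yet differ below in where and in which library they were read. That start is the gene start given above for Ppbp and Pf4, but lies 4 bases after it for Cxcl1 and 28 after it for Cxcl2, so that the last bases shown for these genes lie inside the gene as positioned above. For Cxcl3 the difference is −2 bases. Capitals mark matches to the NF-kappa-B-type motif GGGNNNTTCC on either strand.
Ppbp, chr5:90768368-90768517, plus strand: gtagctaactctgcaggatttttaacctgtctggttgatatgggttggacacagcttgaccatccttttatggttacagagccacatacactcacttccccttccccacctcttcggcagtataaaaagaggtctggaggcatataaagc
Pf4, chr5:90772285-90772434, plus strand: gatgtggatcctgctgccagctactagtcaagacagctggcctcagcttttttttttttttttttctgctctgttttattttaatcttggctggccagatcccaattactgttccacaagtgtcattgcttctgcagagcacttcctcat
Cxcl3, chr5:90785951-90786100, plus strand: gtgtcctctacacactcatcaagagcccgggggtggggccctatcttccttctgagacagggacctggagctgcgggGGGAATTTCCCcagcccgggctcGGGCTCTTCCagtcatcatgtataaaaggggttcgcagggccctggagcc
Cxcl1, chr5:90891095-90891244, plus strand: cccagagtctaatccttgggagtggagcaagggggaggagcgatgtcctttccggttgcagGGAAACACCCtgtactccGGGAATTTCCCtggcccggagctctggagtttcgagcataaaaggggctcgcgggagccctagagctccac
Cxcl2, chr5:90903749-90903898, plus strand: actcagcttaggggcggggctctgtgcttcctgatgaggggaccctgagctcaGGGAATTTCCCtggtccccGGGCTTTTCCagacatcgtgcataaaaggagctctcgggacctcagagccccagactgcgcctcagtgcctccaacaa

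The run GGGAATTTCC, the form of GGGNNNTTCC that 3 of the 6 promoters share on the plus strand, was found before the RefSeq start of Cxcl1, Cxcl2 and Cxcl3, beginning 71, 97 and 73 bases before it, and not in the windows of Ppbp, Pf4 or Cxcl14. Counted from the gene starts given above, it begins 67 bases before Cxcl1, 69 before Cxcl2 and 75 before Cxcl3. Its letters were chosen because they recur in these promoters, so their presence in the 3 was fixed by that choice. Of 32851 RefSeq promoter windows of 300 bases, 29 (0.0883%) held it on either strand. These include the 3, and the share is not an independent background. The looser GGGNNNTTCC, which contains that run and also matches it from the other strand with a shift of 1 base, stood in 5.56% of windows, and gave 1 further site in each of Cxcl1, Cxcl2 and Cxcl3. The letters ATAAAA, which resemble the TATA box, lay on the plus strand 29 bases before the RefSeq start of Ppbp and Cxcl3, 34 before Cxcl1 and 57 before Cxcl2, and stood in 18.5% of windows. From the gene starts given above, these distances are 29 bases for Ppbp and Cxcl2, 30 for Cxcl1 and 31 for Cxcl3. TGANTCA, the AP-1 motif, was found among the 6 in Ppbp alone (7.81% of windows), and TTGCNNAA, a C/EBP-type motif, in Pf4 alone (10.8% of windows). These are matches of letters, not shown binding sites.

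**Figure D1:**
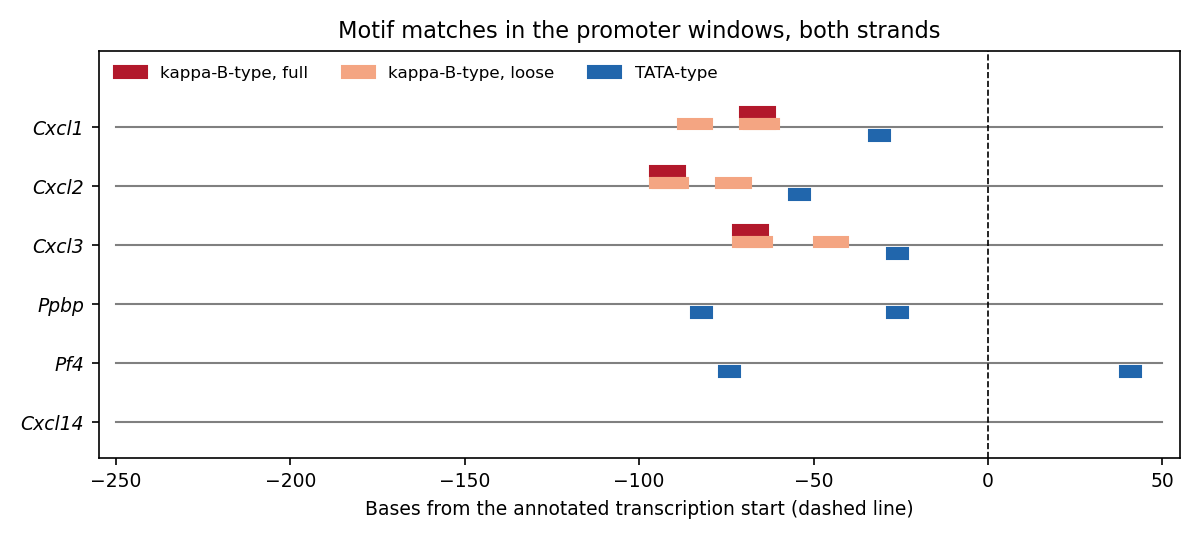
Motif matches in the promoter windows of 6 of the genes, in bases from the RefSeq start (horizontal axis), on either strand, with 1 line per gene. Red bars (the full NF-kappa-B-type run) and orange bars (its looser form) lie on the Cxcl1, Cxcl2 and Cxcl3 lines and not on those of Ppbp, Pf4 and Cxcl14; blue bars are TATA-type matches.

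All 4 neutrophil attractants had their lowest level in the saline library, and Ppbp and Cxcl3 differed most. Ppbp was read at 312 CPM in PCL, 54.6 CPM in UBM and 11.7 CPM in saline, from 3434, 796 and 22 UMIs. Cxcl3 was read at 430 CPM in PCL, 88.9 CPM in UBM and 24.4 CPM in saline, from 4737, 1297 and 46 UMIs. For both genes PCL stood above UBM and UBM above saline, with no overlap of the counting intervals. Cxcl1, the mouse ligand also called KC, followed another order, with 265 CPM in PCL, 416 CPM in UBM and 124 CPM in saline. Cxcl2, also called macrophage inflammatory protein, was the most evenly spread of the 4, at 2585 CPM in PCL, 2104 CPM in UBM and 1401 CPM in saline.

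The 3 contrast genes did not share 1 pattern. Pf4 had 5623 CPM in PCL and 6273 CPM in UBM, against 1500 CPM in saline. Cxcl14 had 49.4 CPM in PCL, against 7.47 CPM in UBM and 6.88 CPM in saline, the last from 13 UMIs. Cxcl16 ran the other way from the rest, with 270 CPM in PCL, 211 CPM in UBM and 493 CPM in saline. Cxcl16 was thus highest in saline and Pf4 lowest there. For Cxcl14 the intervals of UBM (6.14 to 9.01 CPM) and saline (3.67 to 11.8 CPM) overlap, so its lowest library was not settled.

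**Figure D2:**
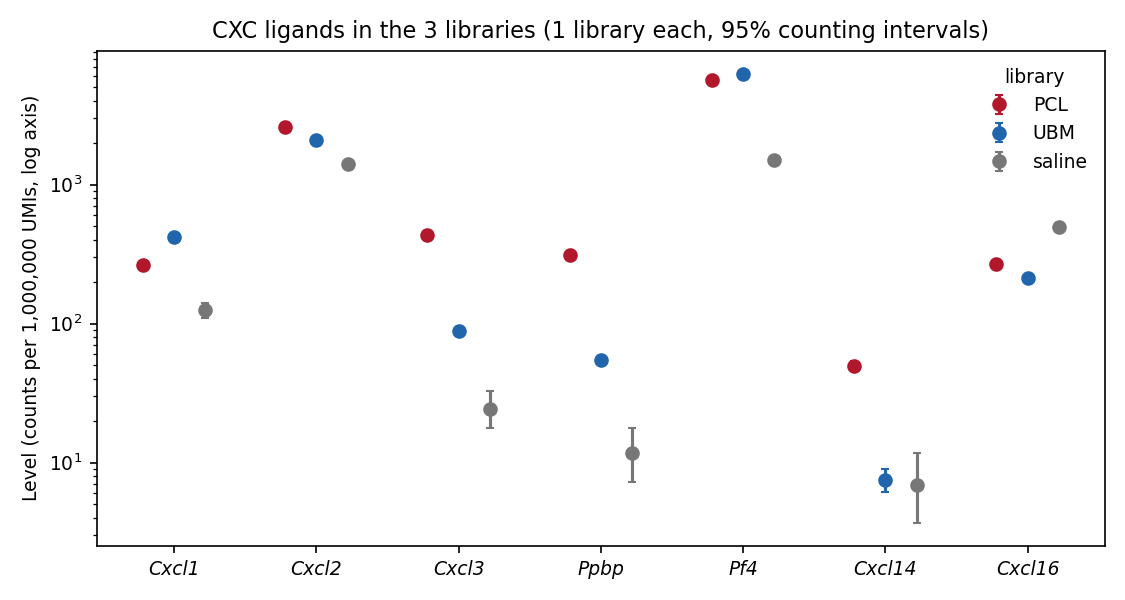
Level of each gene (vertical log axis, CPM) in the PCL, UBM and saline libraries, 1 point per library with its exact Poisson 95% interval, which is smaller than the point where it cannot be seen. The gap between PCL and saline is widest for Ppbp (312 and 11.7 CPM) and Cxcl3 (430 and 24.4 CPM), and Cxcl16 is highest in saline (493 CPM).

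In PCL against saline, Ppbp was 26.8-fold higher (95% interval 17.7 to 42.8) and Cxcl3 17.7-fold higher (13.2 to 24.2). Pf4 was 3.75-fold (3.61 to 3.89), Cxcl1 2.13-fold (1.86 to 2.44) and Cxcl2 1.85-fold (1.77 to 1.92) higher, and Cxcl16 was 1.82-fold lower (1.69 to 1.96). Cxcl14 was 7.18-fold higher (4.16 to 13.6). A gene was counted when it differed at least 2-fold after 10 CPM had been added to each library and when the higher library reached 50 CPM. By that rule 4 of the 7 were counted as higher (Ppbp, Cxcl3, Pf4 and Cxcl1), against 4.21% of the 2829 genes that met that minimum. None of the 7 was counted as lower, against 3.36% of genes. Cxcl14 missed the minimum, and Cxcl1 lay at the edge of the rule, at 1.99-fold (nothing added) when FP1, F1 and RP3, the 3 clusters that had 50 or more cells in PCL and in saline, were weighted equally. Few saline cells carried the low counts, since 1 cell held 37.0% of the saline UMIs of Cxcl3 and 1 cell 40.9% of those of Ppbp. Without the top cell of each library the folds were 27.2 (18.9 to 40.6) for Cxcl3 and 43.8 (25.6 to 82.3) for Ppbp.

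In UBM against saline, Ppbp was 4.68-fold higher (3.07 to 7.52), Pf4 4.18-fold (4.03 to 4.34), Cxcl3 3.65-fold (2.72 to 5.01) and Cxcl1 3.34-fold (2.93 to 3.82). These 4 of the 7 were counted as at least 2-fold higher, against 3.89% of 2753 genes, and Cxcl16, 2.33-fold lower (2.17 to 2.51), was counted as lower, against 6.21% of genes. Cxcl2 was 1.502-fold higher (1.44 to 1.56) and Cxcl14 1.09-fold (0.609 to 2.10), an interval that spans no difference. When FP1 and RP3, the 2 clusters that had 50 or more cells in UBM and in saline, were weighted equally, Pf4 was 1.62-fold and Cxcl1 1.81-fold higher and neither was counted, while Cxcl3 at 3.83-fold and Ppbp at 6.72-fold still were. One UBM cell, of cluster RP2, held 12.6% of the library's Ppbp UMIs, and without it Ppbp had 47.7 CPM in UBM, under the minimum. Without the top cell of each library Cxcl3 was 5.58-fold higher (3.87 to 8.37).

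In PCL against UBM, Ppbp was 5.72-fold higher (5.29 to 6.18) and Cxcl3 4.84-fold (4.55 to 5.15), and these 2 of the 7 were counted as at least 2-fold higher, against 5.88% of 2772 genes. Cxcl14 was 6.61-fold higher (5.38 to 8.20), again under the minimum. Cxcl1 was 1.57-fold lower in PCL (1.502 to 1.64), Cxcl2 1.23-fold higher (1.21 to 1.25) and Cxcl16 1.28-fold higher (1.22 to 1.34). Pf4 was 1.12-fold lower in PCL (1.10 to 1.13), but 1.18-fold higher with FP1, RP2 and RP3 weighted equally. None of the 7 was counted as lower, against 2.85% of genes. The 2 comparisons against saline share the saline library, and PCL and UBM each enter 2 comparisons, so the values are not independent of each other.

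By cluster, over the cells of all libraries, the 7 genes peaked in 5 different places. Because the clusters were made from these same cells' genes, the levels are a description. Cxcl3, Ppbp and Cxcl14 were highest in FP1, Cxcl2 in F2, Cxcl1 in R1, Pf4 in RP1 and Cxcl16 in R3. Thus 4 of the 7 peaked in F2, FP1 or F1, but the share of all genes that peak there was not computed. Of the 1207 FP1 cells 1036 were of PCL, and the count was lower with the UBM library alone, as given below.

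Cxcl3 was read at 572 CPM in FP1 and 479 CPM in F2, whose intervals overlap, then at 283 CPM in RP1 and 78.7 CPM in F1, and at 4.07 CPM in R3. Ppbp was read at 331 CPM in FP1, 192 CPM in F1, and 133 CPM in RP1 and 115 CPM in RP2, whose intervals overlap, and at 4.25 CPM in R1. These 2 genes separated FP1 from R1 and R3 by more than any other members with UMIs in every cluster, being 141-fold higher for Cxcl3 (FP1 over R3) and 77.9-fold for Ppbp (FP1 over R1).

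Cxcl1 was read at 783 CPM in R1 and 613 CPM in RP2, then from 324 to 238 CPM in F2, FP1, RP1 and F1, neighbours whose intervals overlap in that order. Its level was 102.8 CPM in RP3 and 101.3 CPM in R2, which overlap, and 48.8 CPM in R3. Cxcl2 was read at 6367 CPM in the neutrophil-marked F2, followed by 2724 CPM in RP1, 2696 CPM in R1 and 2678 CPM in RP2, which overlap from one to the next, and by 624 CPM in R3. Cxcl2 was thus above 600 CPM in every cluster.

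Pf4 was read at 11577 CPM in RP1 and 8643 CPM in RP2, followed by 5945 CPM in FP1, and was lowest in R3, at 1746 CPM, and R1, at 1626 CPM. R1 therefore held the highest level of Cxcl1 and the lowest of Pf4 and Ppbp, although its interval for Ppbp overlapped that of R2. Cxcl14 was read at 67.9 CPM in FP1 and 23.0 CPM in R1, at 2.39 to 6.55 CPM in 6 clusters, and at 0 in R2. Cxcl16 was read at 710 CPM in R3 and 313 CPM in FP1, and from 251 to 104 CPM in the rest.

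**Figure D3:**
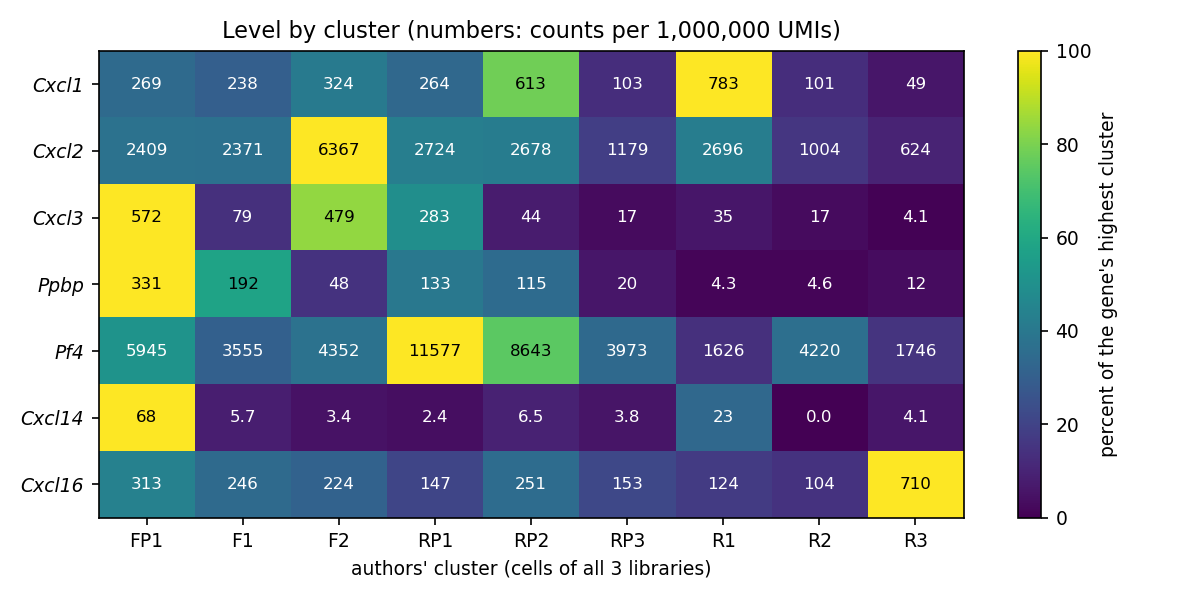
Level of each gene in the authors' 9 clusters over the cells of all libraries, with the CPM printed in each cell of the map and the colour giving the percent of that gene's highest cluster. Cxcl3, Ppbp and Cxcl14 are brightest in FP1, Cxcl2 in F2, Cxcl1 in R1 and RP2, Pf4 in RP1 and RP2, and Cxcl16 in R3.

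The place of the peak also depended on the library, among clusters with at least 20 cells of it. In PCL, Cxcl1 was highest in FP1 (284 CPM), Ppbp in RP2 (535 CPM) and Cxcl16 in RP2 (427 CPM). That Cxcl1 level (272 to 298) overlapped those in F2 (262 CPM, 202 to 334) and RP1 (216 CPM, 160 to 287). In UBM, Cxcl2 was highest in RP2 (2866 CPM) and Cxcl14 in R1 (26.4 CPM, 20.3 to 33.7), which overlapped FP1 (15.1 CPM, 7.82 to 26.4). In saline, Cxcl2 was highest in R1 (2255 CPM), Ppbp in F1 (31.3 CPM) and Pf4 in RP3 (2911 CPM). The saline Ppbp value in F1 (15.6 to 56.0) rests on 11 UMIs, 9 of them in 1 cell, and overlaps FP1 (9.82 to 37.7). Without the top cell of each cluster, saline Ppbp had 5.90 CPM in F1 and 12.8 CPM in FP1. Cxcl3 was highest in FP1 in all 3 libraries, but in UBM its level in FP1 (299 CPM, 262 to 339) overlapped that in RP1 (269 CPM, 250 to 289), and 4 of the 99 UBM FP1 cells held 50% of its UMIs there. The PCL value of Ppbp in RP2 rests on few cells, as 1 of the 58 held 43.2% of its UMIs. Without the top cell of each cluster, PCL Ppbp had 307 CPM in RP2 and 364 CPM in FP1.

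The libraries differed in which clusters they held, and the clusters supplied the UMIs of each gene unequally. FP1 made up 59.1% of PCL cells, 4.34% of UBM cells and 21.1% of saline cells, and it gave 88.5% of the Cxcl3 UMIs of PCL, 18.3% of those of UBM and 84.8% of those of saline. In UBM, RP1 gave 55.4% of the Cxcl3 UMIs. The Cxcl1 UMIs of UBM came chiefly from RP2 (43.3%) and R1 (34.3%), clusters that made up 28.1% and 12.7% of its cells. In PCL, FP1 gave 63.6% and F1 24.8% of the Cxcl1 UMIs.

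Held to 1 cluster, several of the differences were still there, and FP1 held the most of them. In FP1, Ppbp was read at 379 CPM in PCL, 132 CPM in UBM and 20.5 CPM in saline. Cxcl3 was read there at 643 CPM in PCL, 299 CPM in UBM and 79.8 CPM in saline. Both genes kept the order of the libraries, without overlap of the intervals. Cxcl2 had 2645 CPM in PCL FP1 cells, against 1282 CPM in UBM and 1091 CPM in saline FP1 cells.

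For PCL against saline in FP1 (1036 and 72 cells), Ppbp was 18.5-fold higher (10.0 to 38.6), Cxcl3 8.05-fold (5.88 to 11.3), Cxcl14 6.39-fold (2.92 to 17.5), Pf4 3.24-fold (3.04 to 3.45), Cxcl2 2.42-fold (2.22 to 2.65) and Cxcl1 2.28-fold (1.76 to 2.99). All 6 were counted as at least 2-fold higher, against 4.04% of 2846 genes. Cxcl16 was 2.27-fold lower (2.02 to 2.56) and counted, against 2.28% of genes. Here, in contrast to the whole libraries, all 7 genes met the minimum and all 7 passed a fold of 2 in one direction or the other. The saline values of Ppbp and Cxcl14 rest on 10 and 6 UMIs, and 1 saline cell held 17 of the 39 Cxcl3 UMIs. Without the cell with the most UMIs of the gene in each library, a setting chosen after seeing the data, Cxcl3 was 13.6-fold (8.98 to 21.8), Ppbp 28.5-fold (13.1 to 77.8) and Cxcl14 12.2-fold higher (4.14 to 59.2).

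For UBM against saline in FP1 (99 and 72 cells), Ppbp was 6.46-fold higher (3.38 to 13.9), Cxcl3 3.74-fold (2.66 to 5.39) and Pf4 2.50-fold (2.33 to 2.69). These 3 were counted as higher, against 4.09% of 2864 genes, and Cxcl16, 3.64-fold lower (2.99 to 4.45), as lower, against 5.55%. Cxcl1 was 1.88-fold (1.40 to 2.55) and Cxcl2 1.17-fold (1.06 to 1.31) higher. Without the top cell of each library Cxcl1 was 2.18-fold higher (1.57 to 3.08) and was counted. For PCL against UBM in FP1, Cxcl14 was 5.19-fold higher (2.95 to 10.1), Ppbp 2.86-fold (2.35 to 3.51), Cxcl3 2.15-fold (1.89 to 2.46) and Cxcl2 2.06-fold (1.94 to 2.20), and these 4 were counted, against 5.13% of 2826 genes; none was counted as lower, against 2.97%. Cxcl1, which was lower in PCL than in UBM over whole libraries, was 1.21-fold higher in PCL (1.04 to 1.42) within FP1. Neutrophil markers summed to 393 CPM in PCL, 47.9 CPM in UBM and 73.7 CPM in saline FP1 cells, and their part in these values was not tested. In 1 UBM cell lay 40.0% of the 105 Ppbp UMIs of the UBM FP1 cells, and without the top cell of each library Ppbp was 4.57-fold higher in PCL than in UBM (3.56 to 5.96).

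**Figure D4:**
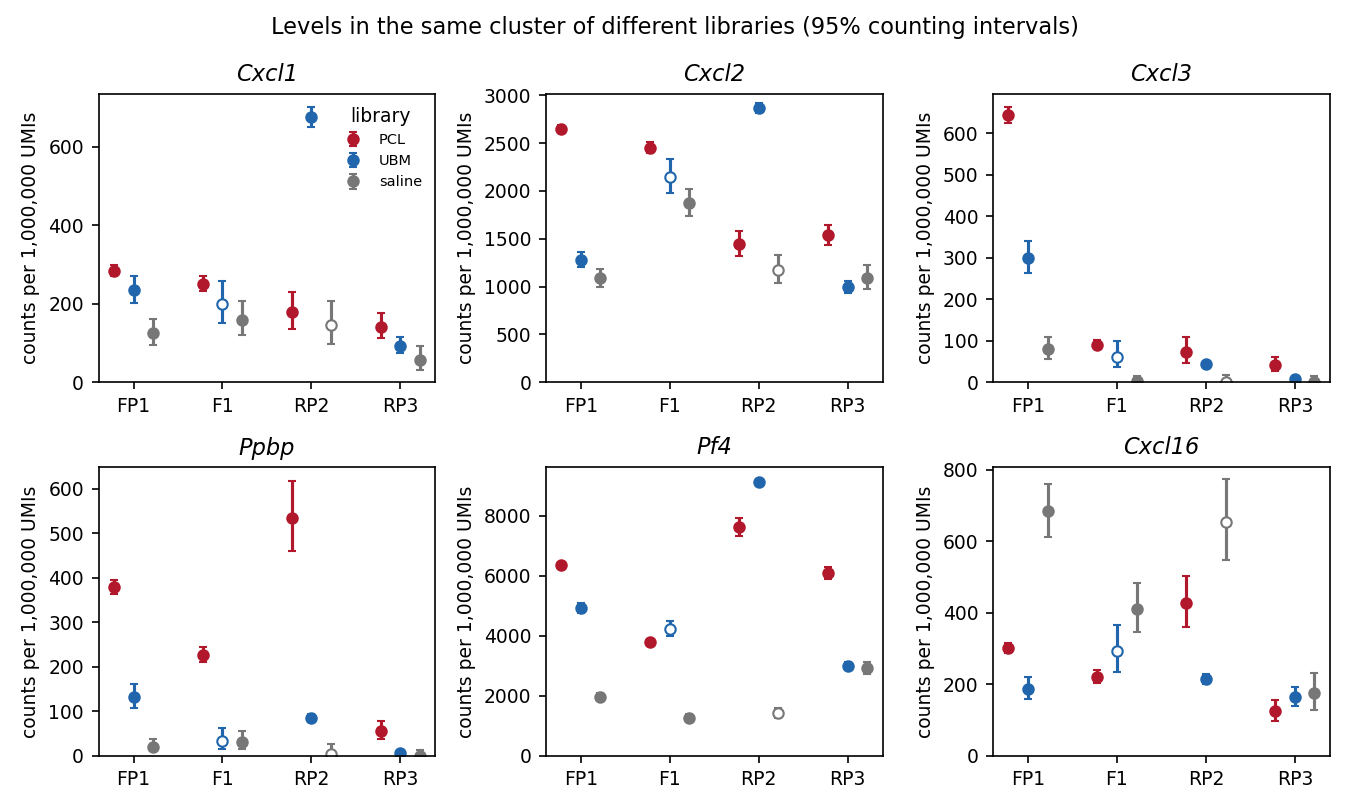
Levels of 6 genes (CPM, axes starting at 0) in clusters FP1, F1, RP2 and RP3, with PCL, UBM and saline side by side and 95% Poisson intervals. Open points mark clusters with 20 to 49 cells in that library. In FP1 the order is PCL, UBM, saline for Cxcl3 (643, 299 and 79.8 CPM) and Ppbp (379, 132 and 20.5 CPM), and in RP2 Cxcl1 is highest in UBM (676 CPM).

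In F1, PCL against saline (455 and 64 cells), Ppbp was 7.25-fold (4.03 to 14.6) and Pf4 2.996-fold (2.72 to 3.30) higher. Cxcl3 had 89.6 CPM in PCL F1 cells, from 258 UMIs, against 2.85 CPM in saline F1 cells, from 1 UMI, a ratio of 31.5 with a counting interval of 5.60 to 1248. These 3 were counted as higher, against 4.82% of 2886 genes. Cxcl1, at 1.57-fold (1.20 to 2.11), Cxcl2, at 1.31-fold (1.21 to 1.42), and Cxcl16, 1.86-fold lower (1.54 to 2.23), were within 2-fold, and none was counted as lower, against 3.15% of genes. One saline cell held 9 of the 11 Ppbp UMIs. Without the top cell of each library Ppbp was 33.7-fold higher (9.28 to 279), Cxcl1, at 2.17-fold (1.56 to 3.09), was counted as higher, and no saline Cxcl3 UMI was left. Neutrophil markers summed to 355 CPM in PCL and 37.0 CPM in saline F1 cells, and their part was not tested.

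RP3 had 50 or more cells in all 3 libraries, as FP1 did. Against saline (68 cells), PCL RP3 cells (92 cells) had 2.09-fold more Pf4 (1.94 to 2.26) and 2.53-fold more Cxcl1 (1.45 to 4.72), and Ppbp, at 55.1 CPM against 0, was at least 4.94-fold higher, taking 3 counts as the limit of the saline RP3 cells. These 3 were counted as higher, against 5.36% of 3022 genes, and none as lower, against 4.14%. In UBM RP3 cells (200 cells) Pf4 had 2999 CPM and in saline RP3 cells 2911 CPM, a ratio of 1.03 (0.952 to 1.12), and Cxcl16 was 1.07-fold lower (0.754 to 1.49). None of the 7 was counted there in either direction, against 3.89% of 2853 genes as higher and 7.64% as lower. For PCL against UBM in RP3, Ppbp was 10.7-fold (4.14 to 35.2) and Pf4 2.03-fold (1.93 to 2.13) higher, the 2 genes counted as higher, against 6.07% of 2815 genes, and none was counted as lower, against 1.78%. Without the top cell of each library that Ppbp ratio was 16.4 (5.08 to 84.1). For Pf4 in UBM against saline the ratio was thus 4.18 over whole libraries, 2.50 in FP1 and 1.03 in RP3. The handling stress genes summed to 28670 CPM in saline RP3 cells, against 12363 CPM in PCL and 12922 CPM in UBM RP3 cells, and neutrophil markers to 577 CPM in PCL, 68.0 CPM in UBM and 74.5 CPM in saline RP3 cells. The part of either in the values was not tested.

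RP2 set Cxcl1 and Ppbp apart. PCL RP2 cells (58 cells) had 178 CPM of Cxcl1, against 676 CPM in UBM RP2 cells (640 cells), 3.79-fold lower (2.94 to 4.98), and this 1 gene was counted as lower, against 2.27% of 2604 genes. Ppbp was read at 535 CPM in PCL and 84.3 CPM in UBM RP2 cells, 6.35-fold higher (5.27 to 7.63), the 1 gene counted as higher, against 3.92%. Cxcl2 was 1.98-fold lower in PCL (1.81 to 2.17) and Cxcl16 1.99-fold higher (1.66 to 2.38). Without the top cell of each library the Cxcl2 ratio was 0.484 (0.440 to 0.531), and it was counted as lower. Ppbp then had 307 CPM in PCL and 58.6 CPM in UBM RP2 cells, 5.24-fold higher (4.12 to 6.64), and was still counted. Neutrophil markers summed to 245 CPM in PCL and 46.1 CPM in UBM RP2 cells, and their part was not tested.

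Within the largest group of cells, the 1036 FP1 cells of PCL, the genes differed in how many cells carried their UMIs. Ppbp ranged from 0 to 97 UMIs per cell with a median of 0, and 27 cells held 50% of its UMIs. The top 10% of these cells (104 cells) held 82.1% of the Ppbp UMIs, 83.4% of the Cxcl14 UMIs, 70.4% of the Cxcl1 UMIs and 65.9% of the Cxcl3 UMIs. The same number of cells held 45.1% of the Cxcl2 UMIs, 38.5% of the Cxcl16 UMIs and 37.8% of the Pf4 UMIs. Cxcl2 and Pf4 had medians of 8 and 24 UMIs per cell and Cxcl3 a median of 1. Cxcl3 was seen in 51.4% of these cells (48.4 to 54.5), Cxcl1 in 41.0% and Ppbp in 37.2%. The contrast between Cxcl2 and Cxcl1 was also seen in UBM RP2 cells, with medians of 12 and 0 UMIs per cell. In UBM RP2, 2 of 640 cells held 50% of the Ppbp UMIs.

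**Figure D5:**
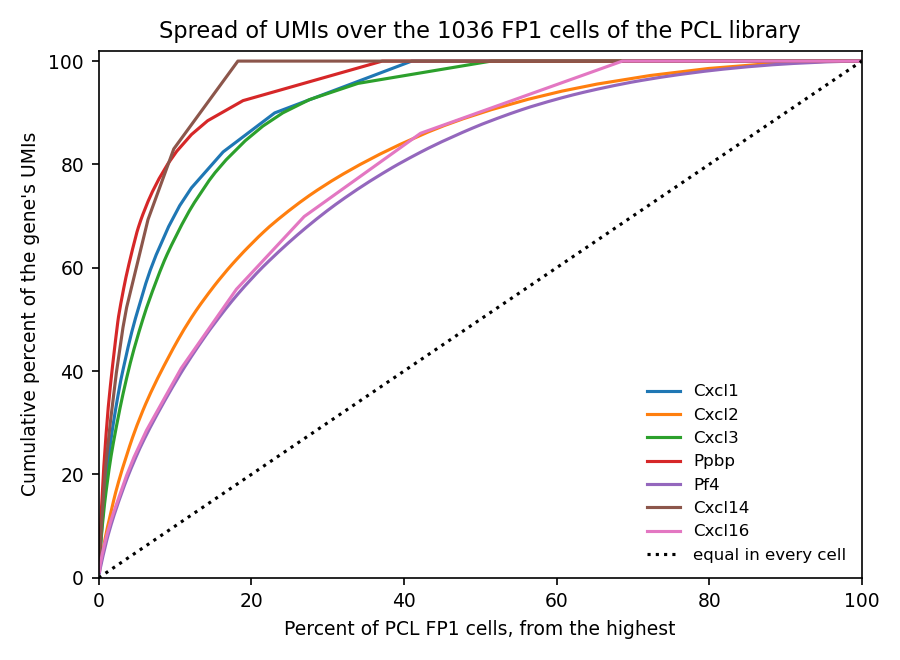
Cumulative percent of each gene's UMIs (vertical axis) against the percent of the 1036 PCL FP1 cells taken from the highest down (horizontal axis), with 1 line per gene and a dotted line for equal shares. At 10% of cells the Ppbp and Cxcl14 lines have passed 80%, Cxcl1 and Cxcl3 lie at 70.4% and 65.9%, and Cxcl2, Cxcl16 and Pf4 lie at 45.1%, 38.5% and 37.8%.

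Shares of cells with a UMI depend on depth, which had a median of 5662 UMIs per cell in PCL, 5476.5 in UBM and 4594 in saline. UMIs were therefore drawn at random down to 2500 in every cell, leaving 1599 PCL, 2118 UBM and 262 saline cells. Cxcl3 was then seen in 29.7% of PCL cells (27.5 to 32.0), 10.1% of UBM cells (8.85 to 11.5) and 3.05% of saline cells (1.33 to 5.93). Ppbp was seen in 21.2% of PCL cells (19.2 to 23.3), 5.15% of UBM cells (4.24 to 6.17) and 1.15% of saline cells (0.237 to 3.31). Unthinned, the shares were 42.6% of PCL, 16.5% of UBM and 3.23% of saline cells for Cxcl3 and 35.4% of PCL, 7.41% of UBM and 2.35% of saline cells for Ppbp. Cxcl1 was seen in 26.1% of PCL cells and 28.5% of UBM cells, whose intervals overlap, and in 17.2% of saline cells. Among cells with any Cxcl1, the median was 2 UMIs in PCL and 4 UMIs in UBM before thinning. Cxcl2 was seen in 85.7% of PCL, 74.3% of UBM and 53.8% of saline cells, and Pf4 in 95.7% of PCL, 92.1% of UBM and 66.4% of saline cells, all thinned.

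Cells that held several of the 4 neutrophil attractants at once were most frequent in PCL. At 2500 UMIs per cell, 3 or 4 of the 4 were seen together in 302 PCL cells (18.9%), 117 UBM cells (5.52%) and 5 saline cells (1.91%). In PCL FP1 the share was 24.8%. Within that cluster, Cxcl3 was seen in 49.4% of cells with Cxcl1 (43.2 to 55.7) and 34.2% of cells without it, and Ppbp in 31.4% of cells with Cxcl3 (26.7 to 36.5) and 20.6% of cells without it. Cxcl1 was seen in 30.4% of PCL FP1 cells with Cxcl2 (27.3 to 33.7) and 8.87% of those without. In UBM, Cxcl1 was seen in 48.8% of RP2 cells with Cxcl2 (44.4 to 53.2) and 6.19% of those without, whereas Cxcl3 was seen in 8.95% of RP2 cells with Cxcl1 and 7.06% of those without. Among the contrast genes in PCL FP1, Pf4 was seen in 96.2% of cells with Cxcl1 and 96.1% of those without, and Cxcl16 in 39.7% of cells with Cxcl3 (34.6 to 44.9) and 50.8% of those without.

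Because free RNA in droplets gives UMIs to cells that do not make a gene, levels in other cell types were set beside these shares. Pf4 and Ppbp are not markers of neutrophils, and of the 56 F2 cells (median depth 4345.5 UMIs) 87.5% had a Pf4 UMI and 12.5% a Ppbp UMI. F2 also held macrophage markers at a summed 17575 CPM. The share of Lyz2 in that sum was not examined, so the sum does not show how much macrophage RNA F2 held. Unthinned, Ppbp was seen in 1.73% of UBM R1 cells and in none of the 46 saline R1 cells. In FP1 it was seen in 37.2% of PCL cells and 15.2% of UBM cells. Median depths over all libraries were 7374 UMIs in R1 and 5538 UMIs in FP1. In PCL, Ppbp was also seen outside FP1, in 35.2% of F1, 35.1% of RP1, 32.8% of RP2 and 30.4% of RP3 cells. Smaller PCL clusters had it in 21.4% of 14 R1 cells, 37.5% of 16 R3 cells and 15.6% of 45 F2 cells. PCL cells with any Ppbp had a median of 1 UMI of it. The part of free RNA in these shares was not tested.

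Platelet markers are given beside Ppbp and Pf4, which platelets store. Of 17 platelet markers 7 were measured, and their summed level was 26.4 CPM in PCL, 68.1 CPM in UBM and 73.1 CPM in saline, with Itga2b and Treml1 at 0 in saline. Most of the sum came from Rgs18, at 17.5 CPM in PCL, 51.3 CPM in UBM and 43.4 CPM in saline, and P2ry12, at 7.81 CPM in PCL, 8.84 CPM in UBM and 21.7 CPM in saline. Itgb3, an integrin chain of platelets, had 0.273 CPM in PCL, 5.69 CPM in UBM and 0.530 CPM in saline. The summed level was 22.9 CPM in PCL cells with a Ppbp UMI and 28.9 CPM in PCL cells without one. By cluster it was lowest in FP1, at 17.3 CPM, where Ppbp was highest, and highest in RP3, at 95.1 CPM. The part of platelet RNA in the results was not tested further. Fibroblasts are a known source of Cxcl14, and 12 of 12 fibroblast markers summed to 320 CPM in PCL, 194 CPM in UBM, where Pdgfra was at 0, and 190 CPM in saline. Most of it was Gsn, at 233 CPM in PCL, 158 CPM in UBM and 133 CPM in saline. The collagen gene Col3a1 had 39.4 CPM in PCL, 12.5 CPM in UBM and 13.8 CPM in saline, and Col1a2 16.6 CPM in PCL, 7.75 CPM in UBM and 6.88 CPM in saline, and their part in the Cxcl14 values was not tested. The fibroblast sum was 345 CPM in PCL cells with a Cxcl14 UMI and 316 CPM in those without. In UBM it was 261 CPM in the 62 cells with a Cxcl14 UMI and 190 CPM in those without. In saline it was 287 CPM in the 10 cells with one and 186 CPM in those without. Neutrophil markers, 11 of 16 measured, summed to 1706 CPM in PCL, 75.4 CPM in UBM and 226 CPM in saline, with Retnlg, Ly6g and Stfa2l1 at 0 in saline. In saline they summed to 6558 CPM in the 11 cells with a Cxcl3 UMI and 50.6 CPM in those without. For Cxcl3 these sums were 157 and 60.3 CPM in UBM, and 1714 and 1699 CPM in PCL. Split by Ppbp, they were 817 and 2318 CPM in PCL, 56.2 and 76.8 CPM in UBM, and 111 and 231 CPM in saline. Without F2, PCL had 429 CPM of Cxcl3 and 318 CPM of Ppbp, against 21.8 and 11.7 CPM in saline. In FP1, F1 and RP3 the neutrophil markers also summed to more in PCL than in saline cells, by the values given for these clusters above, and their part in the results was not tested.

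Cxcl2 and Cxcl3 have similar transcripts, and the longest run they share letter for letter was 157 bases, against 23 bases for either with Cxcl1. It ends 1849 bases before the 3′ end of the Cxcl2 transcript and 3285 bases before that of Cxcl3. These were the longest annotated transcripts, of 2066 bases for Cxcl2 and 3498 for Cxcl3, in genes of 2068 and 3498 bases. They are thus almost unspliced, and the distances are not those in spliced messenger RNA. Only the longest run was sought, so shared runs nearer the ends that a 3′ method reads were not examined. The sources used here do not say how reads that fit more than 1 gene were counted.

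The other CXC ligands were mostly low. Cxcl5, the neighbour of Ppbp and itself a neutrophil attractant, had 13.9 CPM in PCL and 12.2 CPM in UBM against 0 in saline, at least 8.75-fold and 7.68-fold higher when 3 counts are taken as the limit of the saline library. Its highest cluster was RP1, at 35.2 CPM, followed by FP1, at 19.99 CPM. The interferon-induced Cxcl10 had 65.1 CPM in PCL, 9.32 CPM in UBM and 58.3 CPM in saline, 6.98-fold higher in PCL than in UBM (5.80 to 8.44). Of its UMIs, 1 cell held 9.08% in PCL, 1 cell 23.5% in UBM and 1 cell 26.4% in saline. Cxcl9, which draws T cells, had 2.18 CPM in PCL, 4.04 CPM in UBM and 39.2 CPM in saline, where 1 cell held 37.8% of its UMIs. Cxcl12 had 1.18 CPM in PCL, 1.10 CPM in UBM and 3.18 CPM in saline. Cxcl11, Cxcl13, Cxcl15 and Cxcl17 were not analysed here.

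Of the receptors, Cxcr2, which binds the neutrophil attractants, had 6.54 CPM in PCL, 0.343 CPM in UBM and 1.06 CPM in saline, and 79.2% of its PCL UMIs lay in F2. Cxcr4, the receptor of Cxcl12, had 96.2 CPM in PCL, 67.0 CPM in UBM and 115 CPM in saline. Cxcr3, the receptor of Cxcl9 and Cxcl10, had 1.18 CPM in PCL, 2.81 CPM in UBM and 6.35 CPM in saline, and Ackr3, a scavenging receptor, 4.91 CPM in PCL, 4.73 CPM in UBM and 0 in saline. Cxcr1, Cxcr5, Cxcr6, Ackr1, Ackr2 and Ackr4 were not analysed here.

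Of 17 inducing cytokines and receptors 14 were measured, and 4 or 5 met the minimum in each comparison. In PCL against saline none of 4 was counted as higher or lower, against 4.21% of all genes that met the minimum as higher and 3.36% as lower. In UBM against saline Tlr4, the receptor for bacterial lipopolysaccharide, was counted as higher and Il1b and Tlr2 as lower, of 5, against 3.89% of all genes as higher and 6.21% as lower. In PCL against UBM Il1b and Tlr2 were counted as higher, of 5, against 5.88% of all genes. Il1b, which encodes interleukin-1 beta, had 678 CPM in PCL, 104 CPM in UBM and 779 CPM in saline, so that saline, the lowest library for Cxcl1, Cxcl2, Cxcl3 and Ppbp, had the highest Il1b. Il17ra, a receptor chain for interleukin-17 cytokines, had 37.3 CPM in PCL, 8.64 CPM in UBM and 28.6 CPM in saline. Il1f9, the gene of the cytokine named in the study's title, had 10.5 CPM in PCL, 0.343 CPM in UBM and 3.18 CPM in saline. Il17rc was not analysed here.

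Of 20 genes of NF-kappa-B and messenger RNA decay control, 19 were measured. In PCL against saline none of the 15 that met the minimum was counted as higher and 2, Nfkbiz and Tnip3, as lower, against 4.21% and 3.36% of all genes that met it. The median log2 ratio was −0.48, against 0.09 over all these genes. In UBM against saline none of 15 was counted as higher and 4 as lower, against 3.89% and 6.21% of all genes, with a median of −0.64 against −0.04. These 4 were Nfkbiz, Cebpb, Nfkbie and Zc3h12a, of which the last 2 are named only because their values were seen. In PCL against UBM 1 of 11, Cebpb, was counted as higher and 1, Tnip3, as lower, against 5.88% and 2.85% of all genes, with a median of 0.27 against 0.16. Nfkbiz, a co-activator of a set of NF-kappa-B targets, had 142 CPM in PCL, 116 CPM in UBM and 495 CPM in saline. Zfp36, which binds such messenger RNAs and speeds their decay, had 355 CPM in PCL, 532 CPM in UBM and 581 CPM in saline. Cebpb, a transcription factor of inflammatory genes, had 2496 CPM in PCL, 297 CPM in UBM and 1340 CPM in saline. Tnip3, a brake on NF-kappa-B, had 87.2 CPM in PCL, 196 CPM in UBM and 309 CPM in saline.

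Across the 20 groups of cells formed by library and cluster with at least 20 cells, the genes most like each member were taken by Pearson correlation of log2(CPM + 10) among 4338 genes. These groups share libraries and depth, so the values are a description. Cxcl3 was most like Cav1 (r = 0.90), which encodes the coat protein of caveolae, Rgcc (0.88) and Card19 (0.88). Ppbp was most like Prdx1 (0.85), an antioxidant enzyme, Thbs1 (0.83), a matrix-binding glycoprotein, and Tmem43 (0.83). Cxcl1 was most like Prelid1 (0.82), Anxa2 (0.82) and its neighbour Cxcl2 (0.80). Cxcl2 was most like Slc16a3 (0.83), a lactate exporter, Alox5ap (0.81), which serves leukotriene synthesis, and Vav3 (0.81).

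Pf4 was most like Akr1b8 (0.86), P4ha1 (0.85), which hydroxylates collagen, and Cdk20 (0.85). Cxcl16 was most like Mpeg1 (0.86), a pore-forming protein of macrophages, AF251705 (0.86) and Igsf6 (0.85). Among the genes most like Cxcl14 were Mt3 (0.81), a metallothionein, and Lmna (0.77), which encodes a protein of the nuclear lamina. Among the members themselves, Cxcl3 and Ppbp had a correlation of 0.80, Ppbp and Pf4 of 0.72, Cxcl3 and Pf4 of 0.67, Cxcl2 and Cxcl3 of 0.65, Cxcl1 and Cxcl3 of 0.53, and Cxcl1 and Cxcl16 of −0.50. Cxcl1 and Pf4, of the same stretch of chromosome 5, had a correlation of 0.32.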

How the data were processed

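The authors deposited a table of raw UMI counts for 13242 genes in 4374 cells and a table with each cell's condition and cluster. Per the labels, libraries were made with the 10x 3′ kit; per the submitters' processing notes, Cell Ranger and Seurat 2 were used and the build is listed as hg38. The sources used here do not give filters on cells or the treatment of doublets, and no cell was removed. The condition names for UBM, saline and PCL were matched by meaning (extracellular matrix, phosphate-buffered saline, synthetic). The genes and lists were chosen with earlier results of these data known.

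UMIs were summed per library, or per library and cluster, and divided by the total. Intervals are at 95%: exact Poisson for levels, exact conditional binomial for ratios, and Clopper-Pearson for shares. Folds have nothing added, and log2 ratios have 10 CPM added. Libraries were compared within clusters with at least 50 cells in each. With 1 library per group no test was run, so the precision is set by depth alone and says nothing of mice. The calculation was tested on simulated data. Named genes were all members, other CXC ligands and receptors, the extremes of the 2 inducer lists with 6 genes fixed by name, and the 3 genes most like each member. One of the genes most like Cxcl14 is not reported here. Alternatives changed the scaling (edgeR 4.0.16 in R 4.3.3), the weights of cells and clusters, the pseudocount, the minimum and the cells kept. Scripts used Python 3.11.15 with scipy 1.17.1.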

Additional observations from a re-analysis of the deposited data

How the results depend on the processing

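Of 39 counts of genes under another setting, 37 were within 1.5 times the value reported. The exceptions were UBM against saline with clusters weighted equally, where 2 genes (Cxcl3 and Ppbp) were counted, against 4, and the genes peaking in F2, FP1 or F1 with the UBM library alone, where 2 (Cxcl3 and Ppbp) did so, against 4. Of 210 log2 ratios of single genes under another setting 149 stayed within the counting interval, 61 moved outside it, and no counted gene changed direction. With each cell counted alike or clusters weighted equally, 3 genes were counted in PCL against saline, Cxcl1 having dropped out. Cxcl1 also dropped out, and Cxcl14 came in, with ribosomal protein genes and Malat1 left out of the total and without the 5% of cells with the most UMIs, while Cxcl14 came in beside Cxcl1 without the minimum or without F2, giving 5. The log2 ratio of Pf4 in PCL against UBM ran from −0.29 to 0.24 and that of Cxcl14 in UBM against saline from −0.26 to 0.14, neither counted. Thinning moved 67 of 72 shares of cells outside their counting interval. The log2 ratio of Pf4 in UBM against saline ran from 0.70 with clusters weighted equally to 2.20 with TMM scaling, and that of Ppbp in PCL against saline from 3.08 to 4.63; the causes were not tested. TMM scaling shifted the median of all genes by 0.13 (log2) in UBM against saline and by −0.11 in PCL against UBM. Of 52 log2 ratios within a cluster without the top cell of each library, 42 stayed within the counting interval and 10 moved. This setting and leaving out the 5% of cells with the most UMIs were chosen after seeing the data. No paired analysis was possible because each group has 1 library, and for the same reason no replicate could be left out. The saline library, with 341 cells, limits every comparison against it.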

Other observations

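Genes near the CXC ligands on chromosome 5 that encode other proteins had 39.7 CPM or less in each of the 3 libraries. Mthfd2l, a mitochondrial enzyme of folate metabolism, had 9.36 CPM in PCL, 15.1 CPM in UBM and 10.6 CPM in saline. Areg, which encodes the growth factor amphiregulin, had 39.7 CPM in PCL, 18.1 CPM in UBM and 30.2 CPM in saline. Ereg, its relative epiregulin, had 1.36 CPM in PCL, 0.343 CPM in UBM and 0 in saline. In saline, Areg stood above Cxcl3 (24.4 CPM) and Ppbp (11.7 CPM). Mthfd2l, Areg and Ereg were taken as neighbours, and their positions were not looked up here.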
